A study of Homo sapiens with 14 samples.

Results

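The genes described here encode the factors that start and carry out translation in the cytosol, the eIF initiation factors and the eEF elongation factors. They were chosen by gene name, as symbols that begin with EIF1 to EIF6 or with EEF1 or EEF2, without the kinase EIF2AK2, the scaffold EEF1E1, antisense transcripts and names with a pseudogene suffix. The rule found 60 genes, and the same 60 stood in both tables, of 16237 genes listed for a knockdown experiment and 16137 for an overexpression experiment. By name they comprised 4 genes of the eIF1 group, 14 of eIF2, 14 of eIF3, 14 of eIF4, 6 of eIF5 and eIF6, and 8 of eEF. EEF1G, the gamma subunit of eEF1B, is not analysed here.

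All RNA was profiled by RNA-seq and came from UM1, a squamous carcinoma cell line derived from human tongue. In the knockdown experiment, 2 libraries carried a short hairpin against PRMT5 (shPRMT5), the enzyme that dimethylates arginine symmetrically, and 2 a hairpin against GFP (shGFP). In the overexpression experiment, 3 libraries overexpressed ΔNp63α, the TP63 product typical of basal squamous epithelium, and 3 carried the empty vector. The titles call the libraries biological replicates and say no more, so a p-value speaks for these libraries only. In the limma fits the spread of a gene is drawn towards that of genes at a similar level. An SE can thus lie below the gene's own spread. The sources used here give no hairpin sequence, number of clones or culture condition. The stated question of the series is whether and how PRMT5 changes transcription under ΔNp63α.

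Levels are TPM, transcript abundances scaled per length and to a fixed sum per library, so absolute depth is unknown, and in bulk RNA fewer cells of a kind and less RNA per cell cannot be told apart. The knockdown target PRMT5 measured 143 and 126 TPM with shGFP and 29.3 and 33.6 TPM with shPRMT5 (limma adjusted p = 9.74e-09), while TP63 measured 31.3 and 34.6 against 28.8 and 38.8 TPM. TP63, summed over all its transcripts, rose in the overexpression from 138, 82.3 and 97.3 to 152, 160 and 168 TPM (limma adjusted p = 0.0300), a call that was lost without any 1 library except vector replicate 1, with a lowest log2 fold of 0.46. PRMT5 itself was higher there too (log2 fold 0.63, limma adjusted p = 0.0325), with its call lost without 4 of the 6 libraries (lowest log2 fold 0.50). All 9 squamous markers were listed in both tables, with a summed level of 5667 to 6573 TPM with shGFP against 6948 to 7142 TPM with shPRMT5, and of 6330 to 11835 TPM with vector against 17390 to 32023 TPM with ΔNp63α. Of 6 fibroblast markers 4 were listed, at 6.78 to 9.003 TPM in sum with shGFP, 9.35 to 11.8 TPM with shPRMT5, 30.2 to 38.7 TPM with vector and 43.1 to 62.0 TPM with ΔNp63α, while COL1A2 and DCN were not listed. Both sums were thus higher in every treated library than in every control library, and the part of these differences in the results was not tested.

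Translation begins when eIF2, loaded with GTP and the initiator methionyl-tRNA, joins the small ribosomal subunit together with eIF1, eIF1A, eIF3 and eIF5. The eIF4F complex (the cap-binding eIF4E, the scaffold eIF4G and the helicase eIF4A) brings the mRNA, and the eIF4E-binding proteins hold eIF4E away from eIF4G until mTOR phosphorylates them. eIF2B recharges eIF2 with GTP, and stress kinases block this by phosphorylating eIF2. After subunit joining, eEF1A delivers aminoacyl-tRNA, eEF1B recharges eEF1A, and eEF2 moves the ribosome along. Many mRNAs of the elongation machinery begin with a 5′ terminal oligopyrimidine (TOP) tract, through which their translation is tied to mTOR.

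A TOP start was taken as a C at the annotated transcription start followed by at least 4 pyrimidines. A gene with more than 1 start entry was counted if any of them had it. In the RefSeq promoter table (GRCh38.p14), 47 of the 60 genes had an entry, and 13 of these (27.7%) had a TOP start, against 1404 of 27305 genes (5.14%) in the whole table. They were EEF1A1, EEF1B2, EEF2, EIF2A, EIF2D, EIF2S3, EIF2S3L, EIF3D, EIF3F, EIF3K, EIF3M, EIF4A2 and EIF4B. By group, TOP starts were found in 3 of 4 eEF genes, 4 of 8 eIF3, 4 of 12 eIF2, 2 of 13 eIF4, 0 of 4 eIF1 and 0 of 6 eIF5 and eIF6 genes. Allowing the motif anywhere within 10 bases of the annotated start raised the shares to 57.4% of the members and 38.4% of all genes. The starts of 5 members with the motif at the start and of 3 members without it there that were higher in the knockdown follow. Of these 3, EIF4EBP2 and EIF4G2 hold the motif within 10 bases of the start. Each is printed as 10 bases before the annotated start and the first 20 bases of exon 1, on the coding strand. Capitals mark the pyrimidine run from the start. EEF1B2 and EIF4G2 have 2 start entries each, of which 1 is printed.
EEF1A1 (chr6:73521013-73521042, minus strand): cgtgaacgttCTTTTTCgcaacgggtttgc
EEF1B2 (chr2:206159885-206159914, plus strand): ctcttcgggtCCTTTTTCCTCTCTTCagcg
EEF2 (chr19:3985444-3985473, minus strand): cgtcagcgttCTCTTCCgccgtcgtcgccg
EIF3F (chr11:7987327-7987356, plus strand): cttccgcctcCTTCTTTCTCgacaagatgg
EIF4B (chr12:53006446-53006475, plus strand): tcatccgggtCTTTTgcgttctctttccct
EIF1AX (chrX:20141819-20141848, minus strand): gagtcgcggcgccatttgctgccgccgagc
EIF4EBP2 (chr10:70404135-70404164, plus strand): gccttcgcccgcttccggtcgtcgtcgtcg
EIF4G2 (chr11:10807977-10808006, minus strand): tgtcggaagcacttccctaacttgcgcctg
The run was 16 bases long in EEF1B2, 10 in EIF3F, 7 in EEF1A1 and EEF2, and 5 in EIF4B, and the other 3 starts had none.

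In the knockdown, mRNAs of the eIF4G scaffolds, of the eIF4E-binding protein EIF4EBP2 and of the initiation factors EIF1AX and EIF3A rose, while the abundant eIF4E-binding protein EIF4EBP1 fell. The elongation factors, which hold most of the members' summed TPM, gave 0 higher calls by limma (2 at an unadjusted p under 0.05). A gene was called at a limma adjusted p under 0.05 over all genes tested. Of 58 members tested, 13 were higher (22.4%) against 15.1% of all 12635 genes tested, and 2 were lower (3.45%) against 3.48%. The median log2 fold was 0.29 over the members and 0.25 over all genes, so the members' median lay 0.04 above that of all genes. The shPRMT5 and shGFP values did not overlap in 29 members in the higher direction (all genes: 49%) and in 10 in the lower direction (all genes: 14%). EIF2AK3 and EIF4E3 had a mean TPM under 1 and were not tested.

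The general shift bears on the count. Median-of-ratios rescaling of the libraries brought the median log2 fold of all genes from 0.25 to 0.00. After it, 4 members were higher (EIF1AX, EIF3A, EIF4EBP2 and EIF4G2; all genes: 3.6%) and 3 were lower (EEF1D, EIF3F and EIF4EBP1; all genes: 6.81%). Leaving out shPRMT5 replicate 2 left 1 higher member (EIF3C) and 1 lower (EEF1D), and 13 of the 15 calls were lost.

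**Figure D1:**
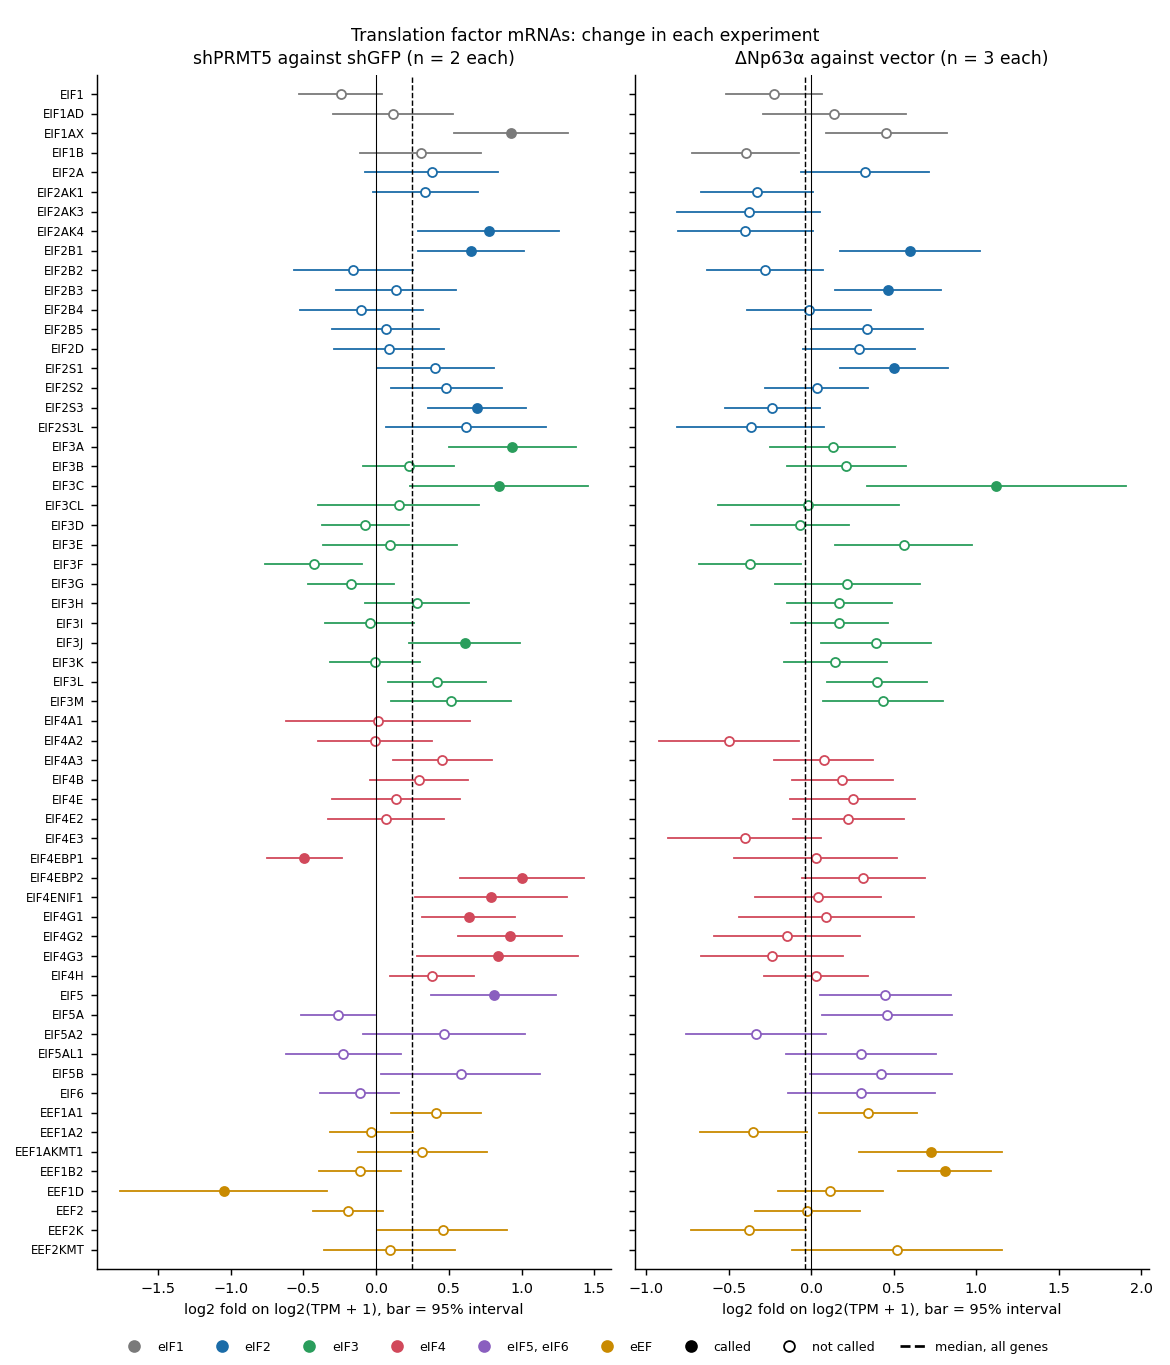
Log2 fold of each translation factor gene on the log2(TPM + 1) scale in the knockdown (left) and the overexpression (right), with 95% intervals; filled points are called, the dashed line is the median of all genes tested, and genes with a mean TPM under 1 have no point. In the knockdown 13 filled points lie to the right and 2 to the left, in the overexpression 6 lie to the right and 0 to the left.

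The eIF4 group had 5 higher and 1 lower call among 13 tested genes and a median log2 fold of 0.39 (all genes: 15.1% higher, 3.48% lower, median 0.25). After rescaling 2 were higher and 1 lower (all genes: 3.6% and 6.81%). Among the cap-binding and scaffold genes, all 3 members of the eIF4G family rose. EIF4G1, the main scaffold of eIF4F, stood at 211 and 172 TPM with shGFP and at 274 and 322 TPM with shPRMT5 (log2 fold 0.64, SE 0.16, limma adjusted p = 0.00678). EIF4G2, which lacks the eIF4E-binding site and serves translation that does not need eIF4E, went from 93.0 and 128.5 to 183 and 235 TPM, a ratio of mean TPM of 1.89 (log2 fold 0.92, SE 0.17, limma adjusted p = 0.000954). EIF4G3, a second eIF4E-binding scaffold, went from 4.82 and 4.20 to 6.90 and 11.2 TPM (log2 fold 0.84, SE 0.27, limma adjusted p = 0.0321). In each of the 3 genes both shPRMT5 libraries lay above both shGFP libraries, as in 49% of all genes tested, and 15.1% of all genes were called higher. After rescaling EIF4G2 alone of the 3 stayed called (log2 fold 0.64, limma adjusted p = 0.0380). Without shPRMT5 replicate 2 the log2 folds were 0.52, 0.74 and 0.52, with no call, and the call of EIF4G1 was also lost without shPRMT5 replicate 1 (0.75) and that of EIF4G3 without shGFP replicate 2 (0.75).

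The eIF4E-binding proteins moved in opposite directions. EIF4EBP1, which is the most abundant of them in this table, fell from 1433 and 1390 TPM to 1006 and 998 TPM, with the libraries of each group close to each other (log2 fold -0.49, SE 0.13, limma adjusted p = 0.00878). Its paralogue EIF4EBP2 rose from 18.6 and 16.5 to 32.9 and 39.5 TPM, 2.07-fold (log2 fold 1.00, SE 0.21, limma adjusted p = 0.00196). Both calls held after rescaling (log2 folds -0.78 and 0.73). That of EIF4EBP2 was lost without shPRMT5 replicate 2 (0.88) and that of EIF4EBP1 without either shPRMT5 library, at -0.50 without replicate 1 and -0.49 without replicate 2. Within a library, the ratio of EIF4EBP1 to EIF4EBP2 was 77.1 and 84.4 with shGFP and 30.5 and 25.3 with shPRMT5, a 2.90-fold change, and scaling a library leaves such a ratio as it is. An exact permutation test of 2 against 2 libraries cannot give a p below 0.333, so no ratio in the knockdown could pass.

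EIF4ENIF1, which shuttles eIF4E into the nucleus and represses bound mRNAs, went from 4.96 and 4.58 to 9.52 and 8.48 TPM (log2 fold 0.79, SE 0.26, limma adjusted p = 0.0322). It was not called after rescaling, nor with any 1 library left out, at log2 folds from 0.72 to 0.87. The cap-binding protein genes themselves were not called: EIF4E stood at 19.96 and 27.2 against 23.8 and 27.9 TPM. EIF4E2, a cap-binding homologue that represses translation, stood at 32.3 and 34.7 against 36.4 and 34.0 TPM. The level of EIF4E is uncertain, since the pseudogene EIF4EP2 held 45.1% to 50.8% of the TPM of both.

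The eIF4A helicase genes were not called. EIF4A3, the core helicase of the exon junction complex, was the most abundant of them here, at 83.3 and 94.7 against 118 and 127 TPM (log2 fold 0.45, SE 0.17, limma adjusted p = 0.0546). EIF4A2 stood at 68.3 and 107.5 against 79.5 and 91.1 TPM. EIF4A1, known as the major eIF4A of proliferating cells, was listed at 0.729 to 1.46 TPM in the knockdown experiment. The 4 pseudogene rows of EIF4A1 in this table held 98.1% to 99.2% of the TPM of gene and pseudogenes together, and the gene's span lies wholly within that of SENP3-EIF4A1, so its level is uncertain. Of the helicase's partners, EIF4H went from 323 and 326 to 416 and 433 TPM (log2 fold 0.39, SE 0.14, limma adjusted p = 0.0541). EIF4B went from 158 and 220 to 215 and 244 TPM (log2 fold 0.29).

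**Figure D2:**
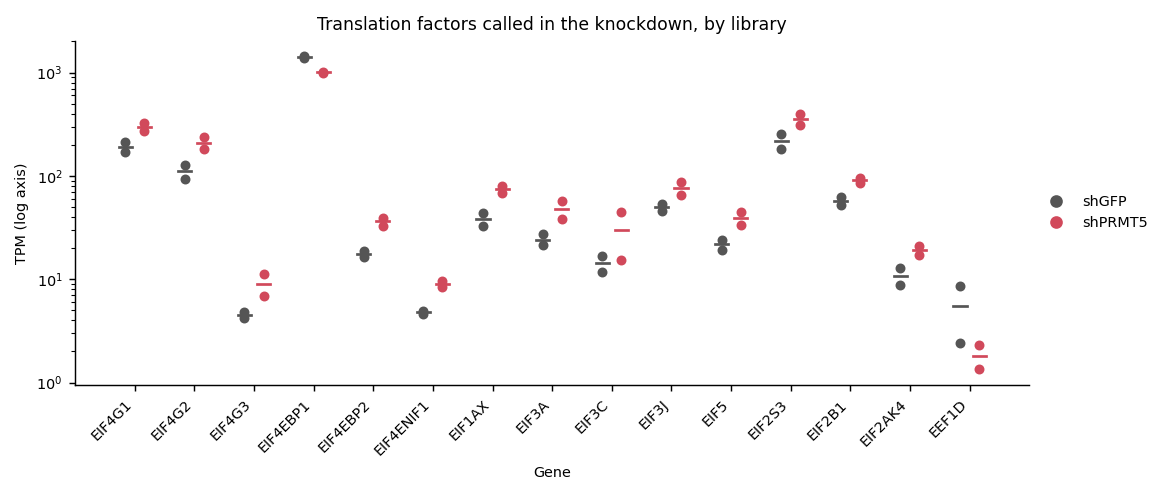
TPM (log axis) of the 15 translation factor genes called in the knockdown, 1 point per library, with a bar at the mean of each group (n = 2). Both shPRMT5 points lie above both shGFP points in 12 of the 13 higher genes, and in 49% of all genes tested. In EIF3C the groups overlap, and in EIF4EBP1 and EEF1D the shPRMT5 points lie below.

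Among the factors that assemble on the small subunit, EIF1AX, which encodes eIF1A and guides scanning for the start codon, rose from 33.1 and 44.1 to 68.0 and 79.7 TPM (log2 fold 0.93, SE 0.19, limma adjusted p = 0.00182). It stayed called after rescaling (log2 fold 0.65, limma adjusted p = 0.0367) but not without shPRMT5 replicate 2 (0.82). Its pseudogene EIF1AXP1 held 38.5% to 48.8% of their joint TPM, so the split between them is uncertain. EIF1, the gatekeeper of start codon choice, showed the other sign, at 460.5 and 457 against 378 and 396 TPM (log2 fold -0.24, limma adjusted p = 0.217), and its paralogue EIF1B stood at 28.7 and 29.9 against 31.8 and 41.8 TPM. The ratio of EIF1 to EIF1B was 16.02 and 15.3 with shGFP and 11.9 and 9.48 with shPRMT5.

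EIF5, the GTPase activator of eIF2, rose from 19.3 and 24.2 to 33.5 and 44.5 TPM (log2 fold 0.81, SE 0.21, limma adjusted p = 0.00995). It was not called after rescaling (adjusted p = 0.0940) or without shPRMT5 replicate 2 (0.61). EIF6, which keeps free large subunits from joining, stood at 714 and 676 against 666 and 619 TPM. EIF5A, the hypusine-bearing factor that helps ribosomes past stalling sequences, was listed at 2908 and 2393 against 2160 and 2244 TPM (log2 fold -0.26, limma adjusted p = 0.135). EIF5A2, its low-level paralogue, stood at 4.16 and 3.61 against 4.91 and 6.67 TPM, so that the ratio of EIF5A to EIF5A2 was 698 and 663 with shGFP and 439 and 337 with shPRMT5.

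eIF3, the large scaffold of the small subunit, showed 3 higher calls and 0 lower among 14 tested genes, with a median log2 fold of 0.19 (all genes: 15.1% higher, 3.48% lower, median 0.25). EIF3A, its core subunit, rose from 21.3 and 27.2 to 38.2 and 57.5 TPM (log2 fold 0.94, SE 0.21, limma adjusted p = 0.00410). That call held after rescaling (0.66, limma adjusted p = 0.0467) and was lost without shPRMT5 replicate 2 (0.65) and after quantile normalization. EIF3J, a loosely bound subunit that was named after its values were seen, went from 46.0 and 53.3 to 65.5 and 88.0 TPM (log2 fold 0.61, SE 0.19, limma adjusted p = 0.0256). Rescaling ended this call, as did leaving out either shPRMT5 library, at log2 folds of 0.82 and 0.40.

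EIF3C, another core subunit, stood at 17.0 and 11.8 against 44.6 and 15.2 TPM, with overlapping groups. Its log2 fold of 0.84 (SE 0.30, limma adjusted p = 0.0474) was 0.10 without shPRMT5 replicate 1 and 0.60 without shGFP replicate 2, with no call, and 1.59 without shPRMT5 replicate 2. It was not called after rescaling, and the neighbouring copy EIF3CL is near-identical, so the split of reads between them is uncertain. EIF3CL itself stood at 3.99 and 3.98 against 4.43 and 4.68 TPM.

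Of the 14 eIF3 genes, 9 had a positive and 5 a negative log2 fold, EIF3G and EIF3F among the latter. EIF3G, which had the highest mean TPM of the group in this table, stood at 342 and 317 against 295.5 and 289 TPM (log2 fold -0.17, limma adjusted p = 0.416). EIF3F, also chosen after its values were seen, stood at 143 and 139 against 108 and 101 TPM (log2 fold -0.43, SE 0.16, limma adjusted p = 0.0603). It was called lower after rescaling (log2 fold -0.71, limma adjusted p = 0.0153). The pseudogene EIF3FP3 held 38.2% to 44.2% of their joint TPM. The mRNAs of 1 complex thus covered log2 folds from -0.43 to 0.94.

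**Figure D3:**
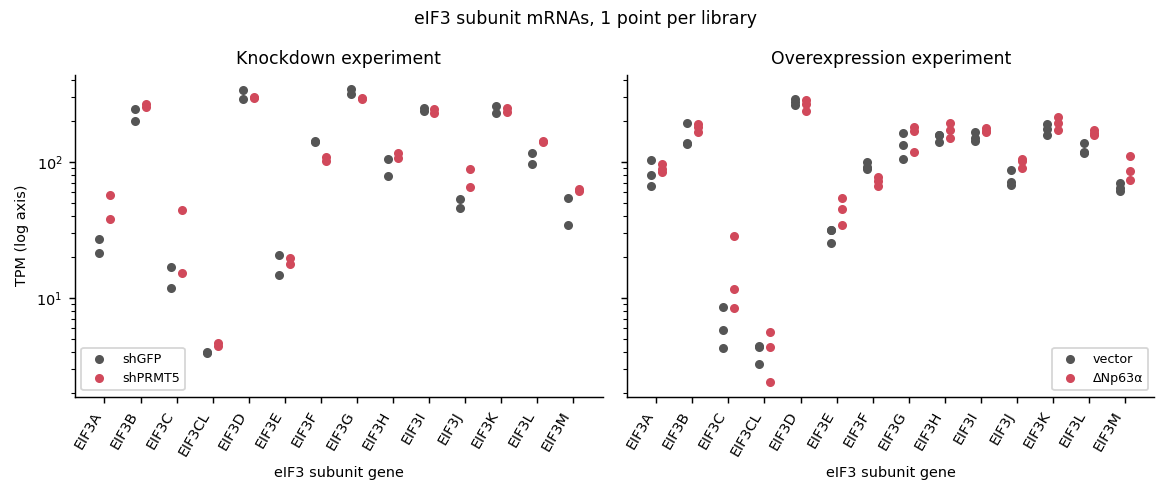
TPM (log axis) of the 14 eIF3 subunit genes in each library of the knockdown (left) and overexpression (right) experiments. EIF3A lies higher with shPRMT5, EIF3F lower with shPRMT5 and with ΔNp63α, and EIF3C spreads widely within the treated groups.

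In the eIF2 group 3 of 13 tested genes rose and 0 fell, with a median log2 fold of 0.38. Over all genes 15.1% were higher and 3.48% lower, with a median of 0.25. EIF2S3, the gamma subunit that binds GTP and the initiator tRNA, went from 183 and 253 to 309 and 395 TPM (log2 fold 0.70, SE 0.16, limma adjusted p = 0.00529). The other subunit genes had log2 folds of 0.41 (EIF2S1, alpha), 0.48 (EIF2S2, beta) and 0.62 (EIF2S3L, a copy of EIF2S3), with no call. EIF2B1, the alpha subunit of the exchange factor eIF2B, rose from 52.8 and 62.3 to 85.2 and 96.3 TPM (log2 fold 0.65, SE 0.18, limma adjusted p = 0.0131), while the other 4 eIF2B genes had log2 folds between -0.16 and 0.14 and no call.

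EIF2AK4, which encodes the amino acid sensing kinase GCN2, went from 8.87 and 12.8 to 17.3 and 20.8 TPM (log2 fold 0.77, SE 0.24, limma adjusted p = 0.0244). EIF2AK1, the heme-regulated kinase, stood at 65.7 and 73.1 against 80.5 and 95.9 TPM (log2 fold 0.34, limma adjusted p = 0.173). EIF2D, which can deliver initiator tRNA without eIF2, stood at 46.8 and 55.8 against 54.2 and 54.8 TPM. After rescaling 0 eIF2 group genes were called, and without shPRMT5 replicate 2 the log2 folds of EIF2S3, EIF2B1 and EIF2AK4 were 0.52, 0.56 and 0.65, with no call. EIF2B1 and EIF2AK4 also lost theirs without shPRMT5 replicate 1 (0.74 and 0.90) and EIF2AK4 without shGFP replicate 1 (0.53).

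The eEF group had 0 higher and 1 lower call among 8 tested genes and a median log2 fold of 0.03 (all genes: 15.1% higher, 3.48% lower, median 0.25). EEF2, the translocase and the most abundant member, stood at 6705 and 5380 against 5316.5 and 5201 TPM (log2 fold -0.19, SE 0.12, limma adjusted p = 0.256). EEF1A1, the main aminoacyl-tRNA carrier, stood at 2266 and 3762 against 3840 and 3920 TPM (log2 fold 0.41, SE 0.15, limma adjusted p = 0.0545), with a log2 fold of 0.78 and a call when shGFP replicate 2 was left out, and of 0.04 when shGFP replicate 1 was. EEF1A2, the muscle and neuron isoform that carcinomas can also express, was listed at 604.5 and 495 against 540 and 530 TPM. EEF1B2, the exchange factor of eEF1A, stood at 772 and 1004 against 818 and 813 TPM.

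EEF1D, the delta subunit of eEF1B, was called lower, from 8.60 and 2.43 to 1.34 and 2.30 TPM (log2 fold -1.05, SE 0.35, limma adjusted p = 0.0360). shGFP replicate 2 lay close to shPRMT5 replicate 2. The call was lost without shGFP replicate 1, at a log2 fold of -0.30, and without shPRMT5 replicate 1 (-0.80). In the overexpression table EEF1D stood at 50.4 to 64.9 TPM, with a vector mean 14.7-fold above its mean in the knockdown table, and its pseudogene EEF1DP1 held 45.4% to 84.8% of their joint TPM in the knockdown table. EEF2K, the kinase that inactivates eEF2, stood at 18.3 and 15.9 against 22.4 and 25.3 TPM (log2 fold 0.46, limma adjusted p = 0.132). The ratio of EEF2 to EEF2K was 365 and 338 with shGFP and 237 and 205 with shPRMT5.

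Summed over all 60 genes, the groups of the knockdown overlapped, at 19639 ± 81.9 TPM with shGFP and 19478 ± 281 TPM with shPRMT5 (SD, n = 2 each). These sums were about 1.96% and 1.95% of a library's TPM. The eEF genes alone held 10554 ± 201 and 10558 ± 32.1 TPM of this. The eIF2 group stood at 772 ± 144 and 1044 ± 126 TPM, and the eIF5 and eIF6 group at 3424 ± 389 and 2938 ± 42.8 TPM. Of the 10 ratios between related genes, 6 did not overlap between the groups. The share over other gene pairs was not worked out, so this count has no background. Beside those given above, EIF4E to EIF4EBP1 went from 0.0139 and 0.0196 to 0.0236 and 0.0280. EIF4G1 to EIF4G3 went from 43.9 and 40.9 to 39.7 and 28.7. All 6 ratios moved towards the gene with the lower TPM, and the part of level in this was not tested. The exact permutation p of these 6 was 0.333 each, the smallest possible, and 0.556 adjusted over the 10 ratios. EEF1A1 to EEF1A2, EIF4A1 to EIF4A2, EIF4G1 to EIF4G2 and EIF4E to EIF4E2 overlapped.

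Members with and without a TOP start can be set side by side in the knockdown. Of the 13 with a TOP start 1 was higher, EIF2S3, with a median log2 fold of 0.09 (-0.19 after rescaling). Of the 32 tested members with another start 11 were higher, with a median of 0.40 (0.12 after rescaling). Over all genes tested, not split by start, 15.1% were higher, with a median of 0.25 (0.00 after rescaling). With the motif allowed anywhere within 10 bases of the start, a definition applied to the folds after they were seen, the order turned: 8 of 27 members with it were higher at a median of 0.39, and 4 of 18 without it at a median of 0.18. The classes at the annotated start also differ in level, with a median of 209 TPM for TOP starts and 38.6 TPM for the others, and the part of level in this difference was not tested.

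The levels in the 2 tables, which were normalized separately, also differed between the experiments. For each member the mean TPM over the 4 knockdown experiment libraries was set against that over the 3 vector libraries. The log2 ratio was -3.87 for EEF1D, -1.81 for EIF4G3 and -1.21 for EIF3A, and at the other end 1.83 for EIF3C, 1.71 for EIF4EBP1, 1.53 for EIF6 and 1.30 for EIF5A. Over the 58 tested members this ratio had a Spearman correlation of -0.55 with the knockdown log2 fold (Pearson -0.25), and over 12284 genes one of -0.44 (Pearson -0.37). Of 25 members below the median ratio of all genes 10 were higher, with a median log2 fold of 0.51. Of 33 above it 3 were higher, with a median of 0.07 (all genes without a split: 15.1% and a median of 0.25). The same split of all genes was not worked out, so these counts have no like background. The ratio and the log2 fold both contain the knockdown libraries, and genes are not independent replicates. The part of this level difference in the calls was not tested.

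**Figure D4:**
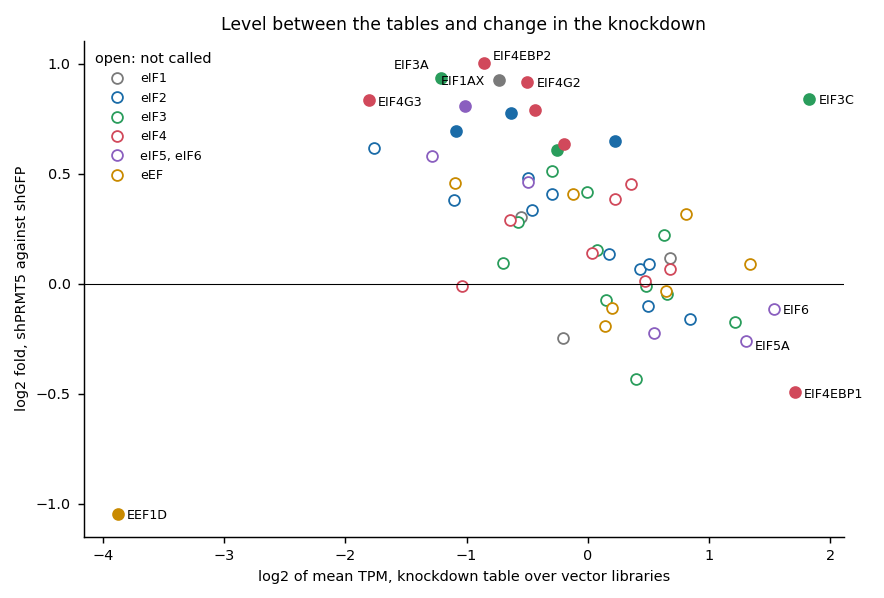
Knockdown log2 fold of each tested member (y axis) against the log2 ratio of its mean TPM in the knockdown table to that in the vector libraries (x axis); filled points are called. EIF4G3 and EIF3A lie at the upper left, EIF4A2 lies at the left with a log2 fold near 0, EIF4EBP1 lies at the lower right, and EEF1D and EIF3C lie apart from the rest.

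With ΔNp63α, EEF1B2, the exchange factor of eEF1A, rose and was the 1 call that held with any library left out. The other calls were EIF2S1, EIF2B1, EIF2B3, EIF3C and EEF1AKMT1. Of 59 members tested, 6 were higher (10.2%) against 7.34% of all 13382 genes tested, and 0 were lower by limma against 14.1% of all genes. At an unadjusted p under 0.05, 14 members were higher and 5 lower, and after rescaling 12 were higher (all genes: 11.2%) and 0 lower (12.7%). The members' median log2 fold was 0.15 and that of all genes -0.04. EIF4A1, with a mean TPM under 1, was not tested. Values did not overlap between the groups in 13 members in the higher direction (all genes: 14.2%) and 10 in the lower direction (all genes: 23.7%).

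EEF1B2, whose start carries the longest pyrimidine run shown above, stood at 706, 804 and 711 TPM with vector and at 1278, 1288 and 1320 TPM with ΔNp63α. All ΔNp63α libraries lay above all vector libraries (as in 14.2% of all genes tested), a 1.75-fold rise (log2 fold 0.81, SE 0.13, limma adjusted p = 0.00110). It kept its call with each of the 6 libraries left out, at log2 folds from 0.78 to 0.87, and under every other alternative run. The 2 EEF1B2 pseudogene rows held 7.98% to 11.4% of the joint TPM.

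EEF1A1, the partner that EEF1B2 recharges, stood at 3362, 4136 and 3783 against 4529, 4830 and 4921 TPM, also without overlap, but was not called (log2 fold 0.34, SE 0.14, limma adjusted p = 0.0940). EEF1A2 was at 285, 381.5 and 372 against 270.03, 257 and 281 TPM (log2 fold -0.35, limma adjusted p = 0.116). The ratio of EEF1A1 to EEF1A2 was 11.8, 10.8 and 10.2 with vector and 16.8, 18.8 and 17.5 with ΔNp63α, a 1.62-fold change (exact permutation p = 0.1, the smallest that 3 against 3 allow; 0.25 adjusted over 10 ratios). EEF2 stood at 5133, 4562 and 5669 against 5495, 4433 and 5192 TPM (log2 fold -0.02).

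EEF1AKMT1, a lysine methyltransferase of eEF1A, rose from 15.0, 11 and 8.72 to 18.4, 20.8 and 18.9 TPM (log2 fold 0.72, SE 0.20, limma adjusted p = 0.0227). Without vector replicate 3 (0.55) or any 1 of the ΔNp63α libraries (0.67 to 0.76) it was not called. EEF2K stood at 43.6, 37.4 and 50.5 against 33.1, 31.8 and 34.8 TPM (log2 fold -0.38, limma adjusted p = 0.112), and the ratio of EEF2 to EEF2K was 118, 122 and 112 with vector and 166, 139 and 149 with ΔNp63α. In sum the eEF genes went from 10085 ± 524 to 11487 ± 492 TPM and all members from 16828 ± 373 to 18784 ± 678 TPM (mean ± SD over 3 libraries).

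**Figure D5:**
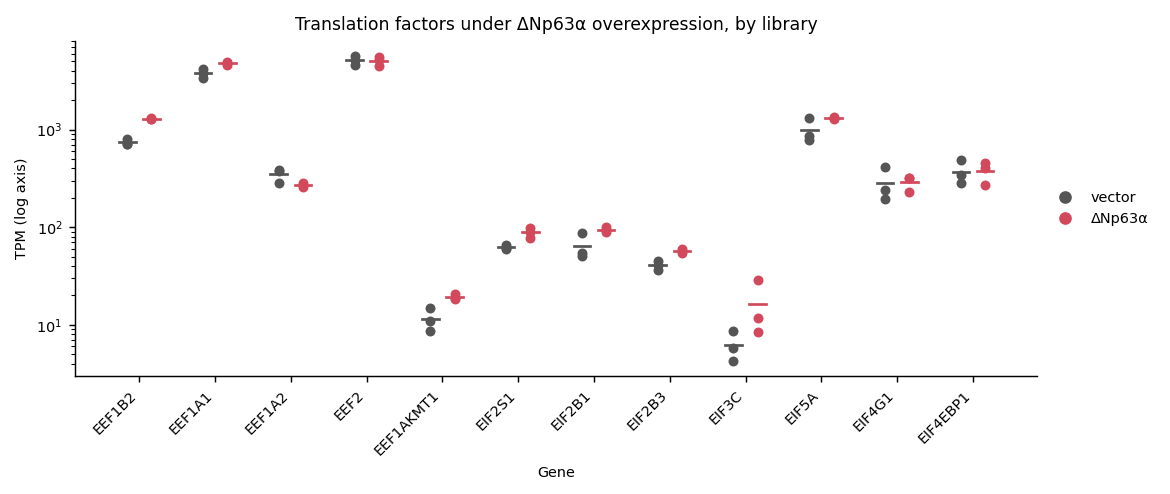
TPM (log axis) of 12 translation factor genes in the overexpression experiment, 1 point per library, with a bar at the mean of each group (n = 3): the 6 called genes and 6 abundant ones that were not called. The EEF1B2 points of ΔNp63α lie between 1278 and 1320 TPM, above the vector points at 706 to 804 TPM.

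The eIF2 group held 3 of the 6 calls among its 14 tested genes, of which 7 had a positive and 7 a negative log2 fold (median 0.01). Over all genes 7.34% were called higher, with a median of -0.04. EIF2S1, the alpha subunit whose phosphorylation halts initiation, stood at 65.4, 60.8 and 59.6 against 76.8, 99.0 and 89.7 TPM (log2 fold 0.50, SE 0.15, limma adjusted p = 0.0329). Its span lies wholly inside that of GPHN, and the use of strand in counting is not stated. EIF2B1 stood at 86.3, 54.1 and 50.4 against 89.4, 99.4 and 93.2 TPM, with vector replicate 1 close to the ΔNp63α libraries (log2 fold 0.60, SE 0.19, limma adjusted p = 0.0469). EIF2B3, the gamma subunit of eIF2B, stood at 44.9, 41.2 and 36.8 against 59.4, 54.1 and 56.9 TPM (log2 fold 0.47, SE 0.15, limma adjusted p = 0.0431). The calls of EIF2B1 and EIF2B3 were lost without any 1 library except vector replicate 1, at log2 folds of 0.45 to 0.63 and 0.39 to 0.50, and that of EIF2S1 without vector replicate 2 or 3 or ΔNp63α replicate 2 or 3 (0.42 to 0.49). All 3 were also lost without the intensity trend, against a fold of 1.2 and when mitochondrially encoded genes were left out, and EIF2B1 with no filter.

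Other eIF2 genes were not called. EIF2S3 stood at 584, 614 and 614 against 466, 546 and 528 TPM (log2 fold -0.24, limma adjusted p = 0.224), where the knockdown had 0.70. EIF2AK1, at 105, 94.1 and 126 against 78.7, 92.1 and 85.8 TPM, and the kinase genes EIF2AK3 and EIF2AK4 had log2 folds of -0.33, -0.38 and -0.40. EIF2A, which can also deliver initiator tRNA, stood at 57.9, 61.1 and 59.8 against 58.9, 95.7 and 74.8 TPM.

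In eIF3, EIF3C was called, at 8.57, 4.30 and 5.84 against 11.7, 8.46 and 28.7 TPM, with overlapping groups (log2 fold 1.12, SE 0.36, limma adjusted p = 0.0443). Without ΔNp63α replicate 3 its log2 fold was 0.64, with no call, and the call was also lost without vector replicate 2 (0.92), vector replicate 3 (1.10) or ΔNp63α replicate 1 (1.26). Over all genes 7.34% were called higher (11.2% after rescaling), with a median log2 fold of -0.04. Of the 14 eIF3 genes 11 had a positive log2 fold, and the median was 0.19. Rescaling raised the calls from 1 to 5, adding EIF3E, EIF3J, EIF3L and EIF3M, which had log2 folds of 0.56, 0.39, 0.40 and 0.44 before it. EIF3F was not called here either, at 89.2, 99.97 and 91.2 against 77.8, 66.2 and 72.3 TPM (log2 fold -0.37, limma adjusted p = 0.0831). EIF3D, the subunit that can bind the cap and the most abundant of the group here, stood at 260.8, 275 and 288 against 285, 237 and 265 TPM.

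The eIF4 group had 0 calls by limma among 13 tested genes, with 0 higher and 1 lower at an unadjusted p under 0.05 and 0 after rescaling. Over all genes 7.34% were called higher and 14.1% lower, and after rescaling 11.2% and 12.7%. EIF4G1 stood at 411, 192 and 240 against 318, 228 and 316 TPM, and EIF4EBP1 at 486, 339 and 282 against 453, 267 and 407 TPM, both with wide spread within the vector group. EIF4EBP2 stood at 55.4, 37.9 and 53.0 against 57.1, 59.1 and 64.6 TPM (log2 fold 0.32, limma adjusted p = 0.213). EIF4A2 stood at 130, 213 and 191 against 103, 142 and 126 TPM (log2 fold -0.50, limma adjusted p = 0.0899). EIF4B stood at 289, 355 and 338 against 353, 357 and 406 TPM and EIF4E at 26.4, 22.9 and 23.3 against 24.3, 35.1 and 28.2 TPM.

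EIF5A stood at 1307, 868 and 781 against 1318, 1292 and 1344 TPM (log2 fold 0.46, SE 0.18, limma adjusted p = 0.0919), where vector replicate 1 was as high as the ΔNp63α libraries. Its ratio to EIF5A2 was 185, 130 and 115 with vector and 291, 193 and 290 with ΔNp63α. EIF1 stood at 474, 538 and 454 against 407, 440 and 404 TPM (log2 fold -0.23) and EIF1B at 47.7, 52.4 and 45.1 against 35.5, 39.3 and 34.6 TPM (log2 fold -0.40, limma adjusted p = 0.0756). The ratio of EIF1 to EIF1B went from 9.94, 10.3 and 10.1 to 11.5, 11.2 and 11.7, without overlap. EIF6 stood at 280, 216 and 198 against 358, 206 and 306 TPM.

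Set side by side, 2 genes were called in both experiments, EIF2B1 and EIF3C, both higher, which is 2 of 13 in the knockdown and 2 of 6 in the overexpression. The share of all genes called higher in both was not worked out, so this overlap has no background. The EIF3C groups overlapped in both experiments. EIF2B1 was not called after rescaling in the knockdown, and in the overexpression it lost its call without any 1 library except vector replicate 1. EEF1B2 had log2 folds of -0.11 with shPRMT5 and 0.81 with ΔNp63α, EIF4EBP2 of 1.00 and 0.32, EIF4G2 of 0.92 and -0.15, and EIF4EBP1 of -0.49 and 0.03. The differences between the experiments were not tested, since the tables were normalized separately. Of the members with a TOP start, 1 of 13 was higher with ΔNp63α at a median log2 fold of 0.15. Of those with another start 4 of 33 were higher at a median of 0.17 (all genes, not split by start: 7.34% and a median of -0.04).

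In the knockdown 8 of 15 tested cap and poly(A) partners were higher and 0 lower, and 2 were higher after rescaling, where over all genes 15.1% were higher and 3.6% after rescaling. NCBP1, the large nuclear cap-binding subunit, rose from 9.85 and 11.8 to 25.9 and 29.4 TPM (log2 fold 1.28). PDCD4, an inhibitor of eIF4A, rose from 8.29 and 9.29 to 16.7 and 22.0 TPM (log2 fold 1.04), and PABPC1, the poly(A)-binding protein that eIF4G contacts, had a log2 fold of 0.81. Of 5 eIF2 signalling genes 2 were higher, the phosphatase subunit PPP1R15B (log2 fold 1.30) and the double-stranded RNA kinase EIF2AK2 (1.04). ATF4, the transcription factor of that response, stood at 721 and 752 against 577 and 631 TPM (log2 fold -0.29, limma adjusted p = 0.128) and was called lower after rescaling (-0.57, limma adjusted p = 0.0369). Of 12 mTOR and MNK genes 2 were higher, MTOR itself (0.96) and its partner RPTOR (0.76). The S6 kinase gene RPS6KB2 stood at 122 and 110 against 93.9 and 88.7 TPM (log2 fold -0.34, limma adjusted p = 0.143) and was called lower after rescaling (-0.62, limma adjusted p = 0.0332). ATF4 and RPS6KB2 were named after their values were seen. Termination gave 1 of 5 (GSPT1, 0.69), mitochondrial translation 1 of 8 (GFM1, 1.12), selenocysteine insertion 1 of 3 (SECISBP2L, 0.90) and hypusine and diphthamide synthesis 0 of 9 (0 at an unadjusted p under 0.05). Of the called genes named here NCBP1 alone kept its call whichever library was left out. All the others were not called without shPRMT5 replicate 2, GSPT1 and RPTOR also not without shPRMT5 replicate 1, RPTOR not without shGFP replicate 2, and SECISBP2L not without either shGFP library. The lowest log2 fold with a library left out ranged over these 9 genes from 0.47 (RPTOR) to 1.12 (PPP1R15B). PABPC1, RPTOR, GSPT1 and SECISBP2L were not called after rescaling.

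With ΔNp63α, MKNK2, which encodes a kinase that phosphorylates eIF4E, fell from 233, 265 and 300 to 121, 109 and 118 TPM (log2 fold -1.19, SE 0.14, limma adjusted p = 0.000193). It was the 1 called gene of 12 in the mTOR and MNK list. It was called whichever library was left out (log2 folds -1.28 to -1.10). Of 8 tested hypusine and diphthamide genes, whose products modify eIF5A and eEF2, 3 were higher, where over all genes 7.34% were higher and 14.1% lower: DPH1 (log2 fold 0.74), DPH5 (0.49) and DPH2 (1.11, with overlapping groups). Termination and recycling had 2 of 5 higher, ETF1 (0.60) and ABCE1 (0.73). Of 16 cap and poly(A) partners NCBP1 was higher (0.62) and PABPC4 lower (-0.46), and of 5 eIF2 signalling genes ATF4 was higher (0.52) and PPP1R15B lower (-0.46). GFM1 was the 1 higher gene of 8 in mitochondrial translation (0.74), and SECISBP2L the 1 lower gene of 3 in selenocysteine insertion (-0.85). Each of these other calls was lost without at least 1 library, vector replicate 3 in every case, and those of PPP1R15B and DPH5 without any 1 of the 6. The log2 folds nearest to 0 with a library left out ranged from 0.40 (DPH5) to 0.76 (DPH2) among the higher genes and from -0.70 (SECISBP2L) to -0.35 (PABPC4) among the lower. PABPC4 and PPP1R15B were not called after rescaling.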

How the data were processed

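The deposited values are TPM, made by the authors, in 1 table per experiment; each column has the same sum over the genes listed, and genes at 0 in any library of a table are not listed there. The submitters' processing notes name Bowtie, featureCounts, FastQC, DESeq2 1.24.0, GRCh37 and hg19 without saying what each was used for. Neither the tool behind the TPM nor the use of strand is stated. The tables hold gene names and no coordinates. Titles gave each sample's group and replicate. CUT&Tag (4 samples) is not analysed here.

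The 2 tables were fitted separately with limma 3.58.1 (R 4.3.3), on log2(TPM + 1) of genes whose mean TPM reached 1. Tests were two-sided, used eBayes with its trend on intensity and were adjusted by Benjamini-Hochberg over all genes tested, with calls at an adjusted p under 0.05. The log2 fold understates changes of low genes. Ratios between genes were taken within a library and compared with two-sided exact permutation tests. The members, gene lists and tests were chosen with earlier results of these data known. Named were called members (up to 10 per direction by fold), the most abundant gene of each role, the genes of the ratios, those called in both experiments and up to 3 called genes per further list; genes named after their values were seen beyond this rule are the remaining called member EIF3J, EIF3F, EIF3CL, EIF2S1, EIF2S2, EIF2S3L, EIF2A, EIF2AK3, EIF2AK4 and the eIF3 genes called on rescaling. Sequences and gene starts are from the RefSeq promoter table of GRCh38.p14, and 2 symbols of eIF4E-binding proteins that end in P and a digit were kept.

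Alternatives were no filter or a minimum mean of 5 TPM, a pseudocount of 0.1, quantile normalization, median-of-ratios rescaling, no trend, limma's treat against a fold of 1.2, a replicate block, leaving out each library and, for the overexpression, leaving out mitochondrially encoded genes. Tested on simulated data for each experiment, the limma step recovered 90% of changes of 1 log2 unit in the knockdown and 95% in the overexpression, with 10 of 12635 and 12 of 13382 unchanged genes called. The simulated noise was normal, independent between genes and set by level alone, with no shift over all genes. These rates check the code and need not hold for the real libraries. Tables and figures were made with Python 3.11.15, pandas 2.3.3, NumPy 2.4.6, SciPy 1.17.1 and Matplotlib 3.10.9.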

Additional observations from a re-analysis of the deposited data

How the results depend on the processing

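Scaling, the filter and single libraries move the counts. The 13 higher knockdown calls became 8 with no filter, 19 at a mean TPM of at least 5, 4 after rescaling, 5 without the intensity trend, 5 after quantile normalization and 3 against a fold of 1.2, and 1 to 22 with a library left out. The 2 lower calls became 1 with no filter and 0 without the trend or against a fold of 1.2, and 0 to 5 with a library left out. The members' median less that of all genes, 0.04, ranged from -0.080 to 0.12 with a library left out. The 6 higher overexpression calls became 12 after rescaling, 2 without the trend, 1 against a fold of 1.2 and 3 without mitochondrially encoded genes, and 1 to 11 with a library left out. The 0 lower calls by limma (5 at an unadjusted p under 0.05) became 2 without mitochondrially encoded genes and 0 to 2 with a library left out. The median less that of all genes, 0.19, was 0.10 after quantile normalization and 0.14 to 0.24 with a library left out. The causes were not tested.

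Same-numbered libraries deviated together with correlations of 0.0866 in the knockdown and of 0.324, 0.231 and 0.0858 in the overexpression. The values 0.324 and 0.231 lie above the threshold of 0.1 set for pairing. The titles do not say that the numbers mark pairs, so the main fits left pairing out, and the overexpression counts depend on this choice. A replicate block gave 19 higher and 3 lower calls in the knockdown and 13 and 3 in the overexpression. No member's log2 fold that was called changed sign under any alternative. Among the ratios between genes, leaving out a library reversed 4 in the knockdown, where the log2 difference ranged from -0.068 to 0.95 for EEF1A1 to EEF1A2, from -0.77 to 0.89 for EIF4A1 to EIF4A2, from -0.67 to 0.10 for EIF4G1 to EIF4G2 and from -0.10 to 0.24 for EIF4E to EIF4E2. In the overexpression it ranged from -0.34 to 0.96 for EIF4A1 to EIF4A2, from -0.13 to 0.18 for EIF4E to EIF4E2 and from -0.14 to 0.51 for EIF4E to EIF4EBP1. All of these overlapped between groups.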
